A study of Homo sapiens with 18 samples.

Results

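WAPL knockout clone 1.14 was compared with wild-type HAP1 controls, called set B here. No label says which controls were prepared or sequenced with the clone. The 3 libraries labelled WaplKO_1.14 were set against the 3 control libraries titled B1 to B3, which are 6 of the 18 libraries of the series. All 20329 genes in the count files were kept as candidates, and 12636 of them held enough reads to be tested. HAP1 is an adherent, near-haploid human line derived from the chronic myeloid leukaemia line KBM-7, and its p53 function is known to be impaired. The controls were unedited HAP1 cells, and the *ΔWAPL* cells carried a blasticidin resistance cassette inserted at a Cas9 cut in *WAPL*. All 3 *ΔWAPL* libraries came from a single clone, so loss of WAPL and other properties of that clone cannot be told apart. A second *ΔWAPL* clone, 3.3, with 3 libraries, was set against 3 other controls, called set A, and served for comparison. The labels do not say that replicates were separate cultures, so the p-values measure only the spread between these libraries, which may be technical.

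WAPL releases the cohesin ring from chromatin. Cohesin, built of SMC1A, SMC3, RAD21 and a STAG subunit, is loaded onto DNA by NIPBL with MAU2 and extrudes it into loops. WAPL opens the ring with the help of PDS5 proteins, and in its absence cohesin stays on chromatin longer and loops become longer.

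In the guide oligo, the 19 bases after CACCG matched chromosome 10 of GRCh37 at 1 place. The genome also holds a G before them, so the guide may be 1 base longer. The site, chr10:88259864-88259882, lies on the plus strand in coding exon 3 of 19 of *WAPL*, which is transcribed from the minus strand (chr10:88195013-88281549). It is shown with 20 bases on each side because the cells were edited there, and the capitals mark the PAM.
WAPL target site: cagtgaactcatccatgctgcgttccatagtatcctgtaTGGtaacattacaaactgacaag

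*WAPL* itself stood at 126, 105 and 132 CPM (reads per 1e6 reads on genes, scaled by edgeR's TMM factors) in control libraries B1, B2 and B3. In clone 1.14 it stood at 42.5, 37.8 and 43.7 CPM. The groups did not overlap, and *WAPL* changed by -1.55 on the log2 scale (SE 0.101, edgeR quasi-likelihood test with Benjamini-Hochberg adjustment, adjusted p = 7.44e-05). Reads over the whole gene were counted, so transcripts broken by the cassette can still add to this value. *WAPL* was the only 1 of 11 genes for cohesin loading, release and acetylation to pass the test. Of the 5 cohesin subunits, 0 passed it by edgeR, 1 was higher at an unadjusted p under 0.05, and DESeq2 called 1 higher. Without control B3, 4 of the 5 subunits and 3 of the 11 genes of loading, release and acetylation were called higher. In that fit 19.5% of all genes tested were called higher. The median deviation of the 5 subunits from the other controls was -0.59 in B2 and 0.48 in B3 on the log2 scale. *RAD21*, the kleisin subunit, stood at 472, 378 and 560 CPM in controls against 630, 582 and 629 CPM in clone 1.14 (log2 fold change 0.38, adjusted p = 0.0762). The loader *NIPBL* stood at 95.1, 41.2 and 154 CPM against 169, 135 and 159 CPM, and its groups overlapped (log2 fold change 0.67, adjusted p = 0.263).

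The 6 libraries held between 14559326 and 18642130 reads on genes, and controls B2 and B3 stood apart from B1 in opposite directions. Among 11672 genes whose average log2 CPM reached 1, 362 in B2 lay over 2-fold from the mean of the other controls, and 360 of these were lower. In B3, 243 genes did so, all of them higher, and in B1 1 gene did. The clone libraries were closer to each other, with 6, 4 and 5 such genes in replicates 1, 2 and 3. The deviations moved with base composition. Spearman's rho across genes between the deviation and transcript GC content was 0.51 in B2, -0.60 in B3 and -0.01 in B1, where genes of the same library are not independent. In the 10% of genes with the lowest GC content, the median deviation was -0.592 in B2 and 0.518 in B3 on the log2 scale.

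**Figure D1:**
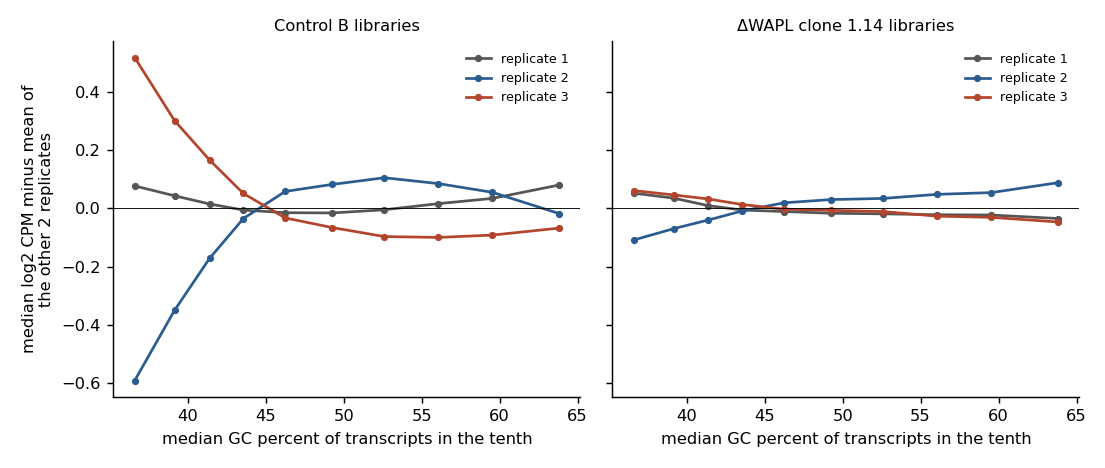
Median deviation of each library from the mean of the other replicates of its group (log2 CPM), over 10 equal classes of genes ordered by transcript GC percent, for the controls and the clone 1.14 libraries. At the low-GC end B2 lies at -0.592 and B3 at 0.518, while the clone libraries lie between -0.109 and 0.061.

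The 5 genes farthest from the other controls in B2 were *AKAP9*, *ANKRD12*, *BRCA2*, *EEA1* and *SYCP2*, all low there. *AKAP9*, a scaffold protein of the centrosome and Golgi, stood at 28.6, 5.62 and 97 CPM in B1, B2 and B3. B2 was the lowest and B3 the highest, and the clone at 104, 77.6 and 93.5 CPM overlapped the controls (log2 fold change 1.06, adjusted p = 0.345). *BRCA2*, a gene of homologous recombination repair, stood at 31.9, 7.04 and 64.7 CPM in the same libraries, with the same order.

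In the clone, replicate 1 held the most genes over 2-fold from the other replicates, but replicate 2 had the widest spread of deviations. The SD of the deviations over genes was 0.126, 0.148 and 0.13 in replicates 1, 2 and 3 on the log2 scale. Their rho with transcript GC content was -0.24, 0.42 and -0.31. The 5 genes farthest in replicate 1, *PHLDA3*, *CDKN1A*, *BTG2*, *GADD45A* and *PLK2*, were all high there and are known p53 targets. They were chosen after the values were seen. The cell cycle inhibitor *CDKN1A* stood at 49.2, 15.1 and 15.5 CPM in replicates 1, 2 and 3 and at 10.1, 10.4 and 7.63 CPM in controls. The groups did not overlap, but the adjusted p missed the threshold (log2 fold change 1.51, adjusted p = 0.0679). *PHLDA3*, an inhibitor of AKT, stood at 14.2, 4.72 and 3.95 CPM in the clone, and *GADD45A*, a stress sensor, at 16.6, 6.91 and 6.86 CPM. Over the 22 p53 targets tested, the median deviation was 0.33 in replicate 1, -0.20 in replicate 2 and -0.13 in replicate 3 on the log2 scale.

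Of 12636 genes tested, 2536 (20.1%) passed the test in clone 1.14, 1099 higher (8.70%) and 1437 lower (11.4%). Changes of at least 2-fold were found in 290 genes that rose (2.30%) and 421 that fell (3.33%). In 42.6% of all tested genes the groups did not overlap. The count was 4820 without control B3, 1415 without clone replicate 1, 1473 without clone replicate 3 and 1523 without control B1.

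**Figure D2:**
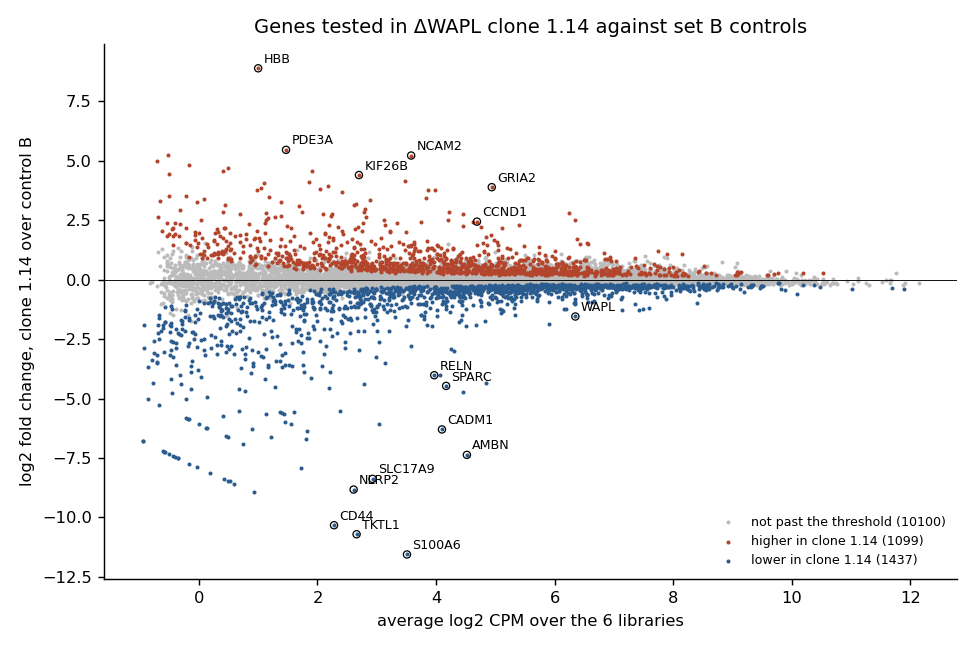
Log2 fold change of clone 1.14 over control B against average log2 CPM for 12636 genes, with the 1099 higher genes, the 1437 lower genes and the genes that did not pass the test in separate colours. Large falls reach further than large rises, and fitted values of genes without reads in a group depend on the prior count.

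Rises and falls were ranked among genes whose average log2 CPM reached 1 and whose groups did not overlap. Of the 10 largest rises, 9 were of genes under 2 CPM in every control. *NCAM2*, a neural cell adhesion molecule, stood at 0.748, 0.677 and 0.395 CPM in controls and at 22.3, 22.7 and 22.3 CPM in clone 1.14 (log2 fold change 5.22, SE 0.154, adjusted p = 3.88e-06). *TLL1*, a metalloprotease related to BMP1, stood at 1.16, 0.88 and 1.3 CPM against 21.4, 17.9 and 21.4 CPM (log2 fold change 4.16, adjusted p = 8.9e-06). *GRIA2*, a subunit of AMPA-type glutamate receptors, stood at 3.33, 1.9 and 5.93 CPM against 62.1, 45.4 and 62.3 CPM (log2 fold change 3.89, adjusted p = 0.000238). In these 3 genes every clone library lay above every control, and *GRIA2* was the only one of them with more than 2 CPM in any control. *KIF26B*, an unconventional kinesin, stood at 0.544, 0.677 and 0.452 CPM against 10.5, 12.2 and 12.8 CPM (log2 fold change 4.40, adjusted p = 1.09e-05). The other members of the 10 largest rises were the phosphodiesterase *PDE3A* (5.46), *JAKMIP3* (4.56), the natriuretic peptide clearance receptor *NPR3* (4.12), *DPYD* (4.06), which starts pyrimidine breakdown, *FAM124B* (3.94) and the raft protein *RFTN1* (3.86), with log2 fold changes in parentheses.

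Among well expressed genes that fell, *AMBN*, which encodes the enamel matrix protein ameloblastin, stood at 43.7, 47.4 and 45 CPM in controls and at 0.159, 0.236 and 0.425 CPM in clone 1.14 (log2 fold change -7.37, SE 0.178, adjusted p = 1.83e-06). *CADM1*, an immunoglobulin adhesion molecule, stood at 33, 32.6 and 35.6 CPM against 0.319, 0.413 and 0.546 CPM (log2 fold change -6.30, adjusted p = 1.83e-06). *RELN*, which encodes the secreted guidance protein reelin, stood at 27.5, 29 and 31.5 CPM against 1.44, 1.89 and 2.12 CPM (log2 fold change -4.02, adjusted p = 5.5e-06). All 3 were above 27 CPM in every control, and *AMBN* and *CADM1* were below 1 CPM in every clone library. Beside *AMBN*, the other 9 of the 10 largest falls, ranked as the rises were, were genes whose reads were lost. Some genes below that level had larger fitted falls, such as *ZNF676* (log2 fold change -8.92).

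A gene was called lost when every control library held at least 30 reads and every clone library at most 3, and switched on in the reverse case. There were 22 lost genes (0.108% of the 20329 genes, or 0.192% of the 11451 with at least 30 reads in every control) and 4 switched on (0.0197%). Within the controls, and within the clone, 0 genes had at least 30 reads in a library and at most 3 in another. *S100A6*, the calcium-binding protein calcyclin, held 326, 364 and 377 reads in controls and 0, 0 and 0 in clone 1.14, at least 391-fold lower with a floor of 3 reads over the group. *TKTL1*, a transketolase-like enzyme, held 182, 213 and 196 reads against 0, 0 and 0, at least 216-fold lower. *CD44*, the hyaluronan receptor, held 149, 139 and 168 reads against 0, 0 and 0, at least 167-fold lower. These 3, with *CFAP95* and the T-box factor *TBX18*, were the 5 lost genes without a read in any clone library. The floors and intervals given here cover counting error only.

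The other 17 lost genes kept between 1 and 6 reads over the clone. *SLC17A9*, the vesicular ATP transporter, held 221, 214 and 283 reads in controls and 1, 1 and 0 in clone 1.14, 395-fold lower (exact 95% interval 109 to 3264). *NLRP2*, a NOD-like receptor gene, held 193, 189 and 187 reads against 1, 0 and 0, 625-fold lower (112 to 24742). *MEIOB*, a factor of meiotic recombination, held 88, 104 and 115 reads against 0, 0 and 1, 337-fold lower (60.1 to 13369). All 3 went from over 80 reads in every control to at most 1 in every clone library. *TIAM1*, an activator of the GTPase Rac, held 96, 85 and 146 reads against 2, 0 and 2, and *FASTKD2*, which binds mitochondrial RNA, 74, 53 and 84 against 1, 1 and 0. The rest were the sodium-chloride cotransporter gene *SLC12A3*, the zinc finger genes *ZNF486* and *ZIK1*, the microfibril gene *MFAP2*, the phosphatase subunit gene *PPP2R2B*, the GTPase gene *RHOB*, the RNA-binding *LIN28A*, which blocks let-7 maturation, the cytidine deaminase *CDA*, and *VIT*, *HCLS1*, *HHLA2* and *TCEAL8*.

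The 4 genes switched on were *PDE3A*, *HBB*, *PIP5K1B* and *CHST9*. *HBB*, the adult beta-globin gene, held 0, 0 and 0 reads in controls and 62, 68 and 57 in the clone, at least 56.7-fold higher. Globin genes of the same cluster are alike in sequence, so the split of reads between them is uncertain. *PDE3A* held 3, 0 and 2 reads against 96, 91 and 74, 47.5-fold higher (20.1 to 148). *PIP5K1B*, a phosphoinositide kinase, held 3, 1 and 0 reads against 33, 43 and 47, and the sulfotransferase *CHST9* 2, 2 and 0 against 46, 35 and 34.

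**Figure D3:**
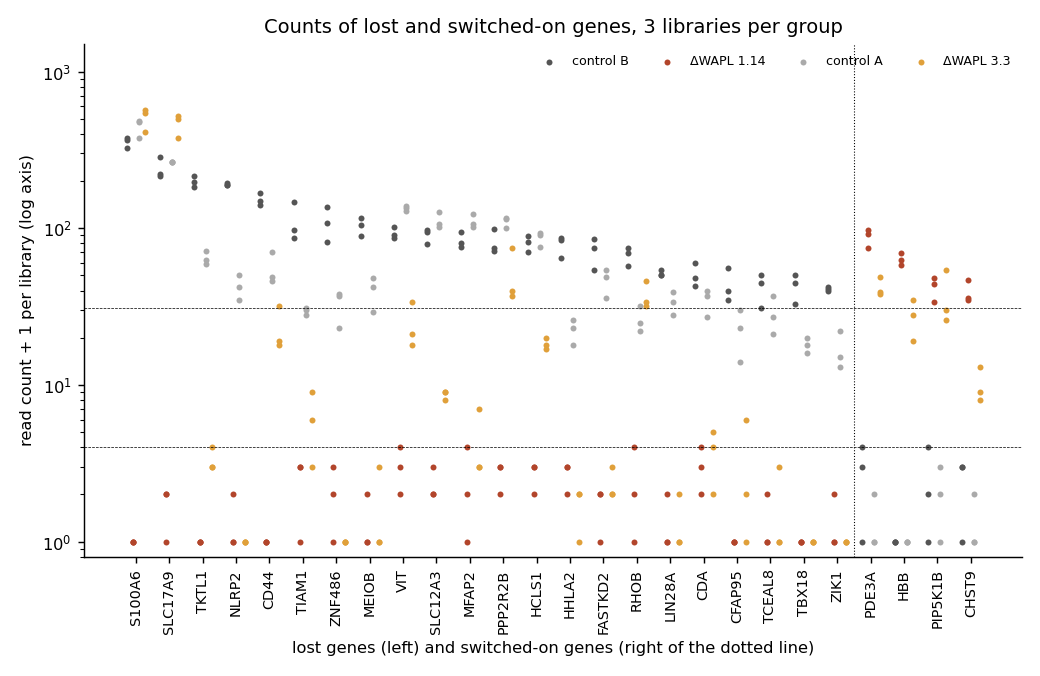
Reads per library of the 22 lost genes and the 4 genes switched on, in the controls and in clone 1.14. Every lost gene has at least 30 reads in each control and at most 3 in each clone library, and the 4 genes switched on show the reverse.

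Neighbours of lost genes were counted as well. Among the 132 tested neighbours of lost genes (3 on each side), 27 fell (20.5%, against 11.4% of all genes tested) and 10 rose (7.58%, against 8.70%), with a median log2 fold change of -0.01. Of the 22 lost genes, 7 had no neighbour that fell. Next to *S100A6*, *S100A4*, a gene of the same calcium-binding family, fell (log2 fold change -1.25, adjusted p = 0.00077), as did *S100A10* 1552 kb away (log2 fold change -0.30), while *S100A11*, 1502 kb away, rose (log2 fold change 0.73, adjusted p = 0.00413). In the promoter windows (250 bases before the start, from RefSeq, GRCh38.p14), the 19 lost genes with a window held a median of 12 CpG (1 to 36), against 21 (0 to 59) over 10172 tested genes with one.

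Clone 3.3 gave a second reading of the same genes against other controls. All 22 lost genes held at least 10 reads in every set A control. In clone 3.3, 19 of the 22 were lower than in every set A control, and 10 held at most 3 reads in every library. At the other end, *S100A6* held 565, 408 and 539 reads in the 3 libraries of clone 3.3, *SLC17A9* 521, 376 and 494, *RHOB* 45, 33 and 31 and *PPP2R2B* 74, 39 and 36, so these 4 kept at least 30 reads in each. All 4 genes switched on had at most 3 reads in every set A control and were higher in every library of clone 3.3.

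The metallothioneins, small cysteine-rich proteins that bind zinc and copper, fell together. All 5 of 5 tested passed the test, where 11.4% of all genes tested fell. Their median log2 fold change was -0.88, against 0.0015 over all genes. *MT2A* stood at 56.7, 59.4 and 48.8 CPM in controls and at 31.6, 32.5 and 25.9 CPM in clone 1.14 (log2 fold change -0.88, adjusted p = 0.00206). *MT1E* stood at 51.6, 54.6 and 43.4 CPM against 28.2, 28.3 and 24.3 CPM (log2 fold change -0.89, adjusted p = 0.0015), and *MT1M* at 4.49, 5.21 and 4.24 CPM against 0.691, 0.413 and 0.425 CPM (log2 fold change -3.15, adjusted p = 8.54e-05). In each of these 3 genes every clone library lay below every control. The genes are near-identical and neighbours on chromosome 16, so reads may be split between them. In clone 3.3, where 1008 of 12489 genes (8.07%) passed the test against the set A controls, 2 of the 5 fell, with a median of -0.50. Promoter windows of *MT2A* and *MT1X* were available and are shown because all members moved together, with matches to the metal response element (TGCACNC or TGCGCNC, either strand, 250 bases before the start, GRCh38.p14, from RefSeq) in capitals.
MT2A, chr16:56608334-56608583, plus strand: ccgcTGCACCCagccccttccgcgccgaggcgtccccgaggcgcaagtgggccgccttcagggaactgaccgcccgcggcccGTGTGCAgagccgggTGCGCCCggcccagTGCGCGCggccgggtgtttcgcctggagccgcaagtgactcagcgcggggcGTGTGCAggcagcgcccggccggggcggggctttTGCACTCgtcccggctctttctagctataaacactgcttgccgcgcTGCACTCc
MT1X, chr16:56682220-56682469, plus strand: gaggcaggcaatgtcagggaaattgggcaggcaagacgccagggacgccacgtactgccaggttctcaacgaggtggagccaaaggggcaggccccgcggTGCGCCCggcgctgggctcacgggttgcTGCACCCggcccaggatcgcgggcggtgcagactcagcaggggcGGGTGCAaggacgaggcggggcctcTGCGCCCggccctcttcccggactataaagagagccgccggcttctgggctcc
The *MT2A* window held 7 matches and that of *MT1X* 4. At least 1 match was found in 34.2% and at least 3 in 2.35% of 10172 promoter windows.

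Genes of the amino acid stress response, which the factor ATF4 drives when amino acids or charged tRNAs are short, were lower. Of 30 tested, 20 fell (66.7%, against 11.4% of all genes tested) and 0 rose by edgeR (against 8.70%). At an unadjusted p under 0.05 and by DESeq2, 0 rose as well. The median log2 fold change was -0.36. *CHAC1*, which degrades glutathione, stood at 13.5, 14.2 and 11.5 CPM in controls and 5.58, 5.55 and 4.86 CPM in clone 1.14 (log2 fold change -1.29, adjusted p = 0.000352). *SLC7A3*, a cationic amino acid transporter, stood at 92.2, 109 and 97 CPM against 43.8, 42.3 and 40.7 CPM (log2 fold change -1.24, adjusted p = 6.26e-05). *DDIT4*, an inhibitor of mTORC1, stood at 24.3, 25.7 and 19.9 CPM against 14.5, 12.7 and 10.6 CPM (log2 fold change -0.89, adjusted p = 0.00542). The clone was below the controls in every library for all 3. Asparagine synthetase *ASNS* (-0.56), the serine pathway enzyme *PSAT1* (-0.46), tRNA synthetases such as *WARS1* (-0.71) and *AARS1* (-0.46), and *ATF4* (-0.29) itself fell by less (here and below, a value after a symbol is its log2 fold change). *SLC7A11*, the cystine transporter, did not pass the test (log2 fold change 0.42, adjusted p = 0.267). In clone 3.3, 2 members rose and 1 fell, with a median of 0.02, and *CHAC1* differed between the clones (difference -1.94, adjusted p = 6.04e-05). The C/EBP-ATF response element (TGATGNAAN, either strand) was found in 3 of the 18 windows of members that fell, in 0 of the 7 others, and in 1.30% of all 10172 windows. The 3 windows are shown with the match in capitals.
CHAC1, chr15:40953221-40953470, plus strand: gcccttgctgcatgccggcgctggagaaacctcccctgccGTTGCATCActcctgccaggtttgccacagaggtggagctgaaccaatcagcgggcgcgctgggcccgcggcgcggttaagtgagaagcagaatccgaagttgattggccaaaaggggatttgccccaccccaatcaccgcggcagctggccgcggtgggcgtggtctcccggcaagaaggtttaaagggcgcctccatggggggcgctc
ASNS, chr7:97872409-97872658, minus strand: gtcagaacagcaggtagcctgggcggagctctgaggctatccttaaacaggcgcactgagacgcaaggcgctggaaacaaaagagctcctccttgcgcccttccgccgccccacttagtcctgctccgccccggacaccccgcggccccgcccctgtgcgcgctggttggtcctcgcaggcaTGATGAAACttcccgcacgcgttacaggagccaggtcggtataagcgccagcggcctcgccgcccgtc
AARS1, chr16:70289507-70289756, minus strand: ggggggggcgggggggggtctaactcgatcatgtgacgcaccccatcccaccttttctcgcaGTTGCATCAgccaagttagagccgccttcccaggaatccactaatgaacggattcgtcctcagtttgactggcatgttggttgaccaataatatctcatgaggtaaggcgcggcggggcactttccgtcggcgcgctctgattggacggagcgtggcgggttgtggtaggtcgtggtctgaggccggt

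Cholesterol synthesis genes fell by small amounts. Of 23 tested, 14 fell (60.9%, against 11.4% of all genes tested) and 0 rose by edgeR (against 8.70%). At an unadjusted p under 0.05 and by DESeq2, 0 rose as well. The median log2 fold change was -0.29. The count that fell was 7 without control B1 and 8 without clone replicate 1. In these fits 6.6% and 6.47% of all genes tested fell. The sterol dehydrogenase *NSDHL* (-0.52), the kinase *PMVK* (-0.47) and the SREBP anchor *INSIG1* (-0.47) fell furthest. Only 1 strict form of the sterol response element was searched, on either strand. That form was found in 0 of the 9 promoter windows of members that fell, in 1 of the 9 others and in 0.0786% of all 10172 windows. It is so rare that 0 of 9 windows cannot show whether the members that fell lack such elements. Other forms of the element were not tested. In clone 3.3, 1 member fell, with a median of -0.19.

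**Figure D4:**
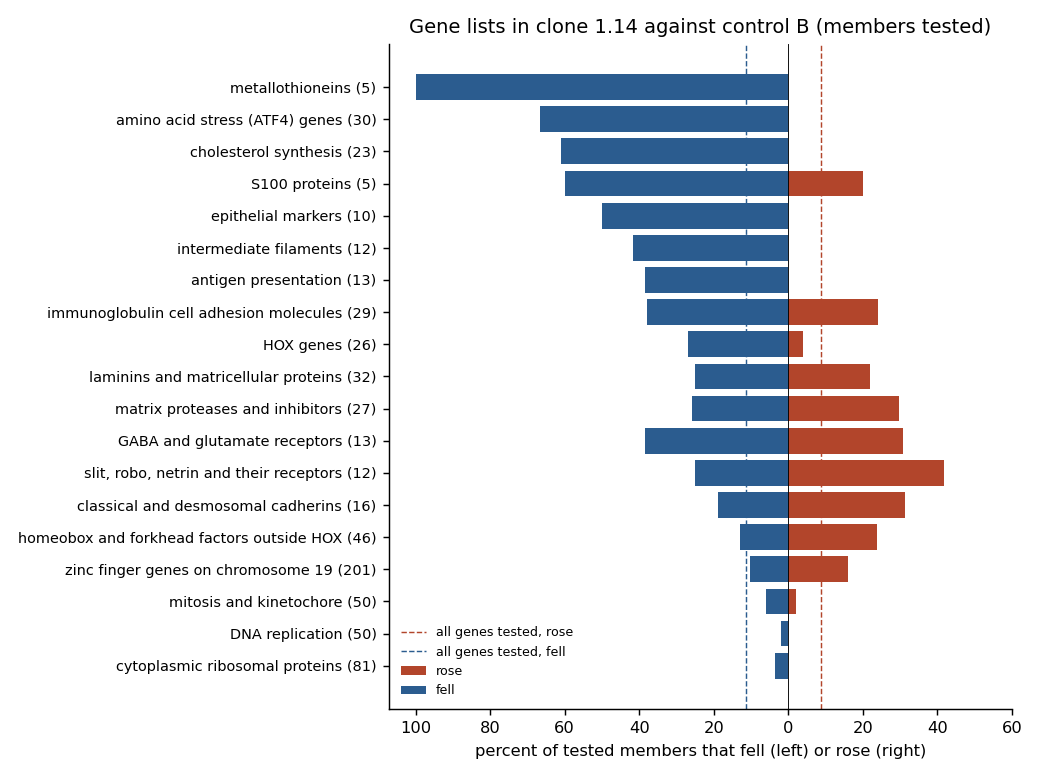
Percent of the tested members of each gene list that fell and that rose in clone 1.14, with dashed lines at the shares of all genes tested. Of the metallothioneins 100% fell, of the ATF4 list 66.7% and of cholesterol synthesis 60.9%, against 11.4% of all genes tested.

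Adhesion and matrix genes changed in both directions. The shares in this and the next paragraphs stand against 8.70% of all tested genes that rose and 11.4% that fell. Fits that left out a library had other shares over all genes. Without control B3, 19.5% rose and 18.5% fell, and without B2, 9.25% rose and 11% fell. Without control B1 or any 1 clone library, 4.65% to 5.79% rose and 6.47% to 7.57% fell. With the replicate number as a block, 11.2% rose and 12.8% fell. Of 29 immunoglobulin adhesion molecules, 7 rose (24.1%) and 11 fell (37.9%): beside *CADM1* and *NCAM2*, the axonal proteins *CNTN1* (-3.50) and *L1CAM* (-1.53) fell, and *CHL1* (2.81) and *SDK1* (1.38) rose. Of 16 cadherins, 5 rose (31.2%), among them the giant cadherins *FAT3* (3.69) and *FAT4* (1.05), and 3 fell (18.8%), among them *CDH3* (-0.96) and *DCHS1* (-0.96). Without control B1, clone replicate 1 or clone replicate 3, 3 cadherins rose. Of 32 laminins and matricellular proteins, 7 rose (21.9%) and 8 fell (25%). *SPARC*, a collagen-binding secreted protein, stood at 33.7, 35.2 and 33.9 CPM in controls and 1.97, 1.59 and 1.03 CPM in the clone (log2 fold change -4.47, adjusted p = 9.75e-06). Its relative *SPARCL1* stood at 3.26, 1.96 and 3.39 CPM against 14.8, 13.4 and 14.1 CPM, in the other direction (log2 fold change 2.28, adjusted p = 0.000121). Of 27 matrix proteases and inhibitors, 8 rose (29.6%), among them the gelatinase *MMP2* (2.20) and *ADAMTS15* (1.75), and 7 fell (25.9%), among them the urokinase receptor *PLAUR* (-2.06) and tissue factor *F3* (-1.65). Of 13 GABA and glutamate receptor genes, 4 rose (30.8%) and 5 fell (38.5%), with *GABRA5* (-6.08) at the low end and *GRIA2* at the high end.

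Part of the epithelial markers and of the intermediate filament genes fell; in bulk samples, fewer cells of a type and less RNA per cell cannot be told apart. Of 10 epithelial markers tested, 5 fell and 0 rose by edgeR (1 at an unadjusted p under 0.05, 0 by DESeq2). *KRT8*, a keratin of simple epithelia, stood at 10.5, 11.2 and 9.49 CPM against 2.5, 2.3 and 2.25 CPM (log2 fold change -2.14, adjusted p = 3.66e-05). The tight junction gene *OCLN* stood at 18.5, 15.6 and 18.2 CPM against 5.79, 4.9 and 5.46 CPM (log2 fold change -1.70, adjusted p = 6.02e-05). Both were lower in every clone library. The summed level of the 20 epithelial markers was 449 to 482 CPM in controls and 421 to 448 CPM in the clone. Of 12 intermediate filament genes, 5 fell, including *VIM* (-0.43) and *LMNA* (-0.64), 7 did not pass the test, and 0 rose by edgeR, at an unadjusted p under 0.05 or by DESeq2.

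Developmental regulators moved gene by gene. Of 26 HOX genes, 7 fell (26.9%) and 1 rose (3.85%). *HOXB9* stood at 12, 14.1 and 13.2 CPM in controls and 2.82, 2.95 and 2.91 CPM in clone 1.14 (log2 fold change -2.18, adjusted p = 1.99e-05). *HOXB2*, the member that rose, changed by 0.29 (adjusted p = 0.0421) and lost that call with DESeq2 and without any 1 library but control B1. Of 46 other homeobox and forkhead genes, 11 rose (23.9%), among them *ISL1* (0.78) and *PAX6* (0.66), and 6 fell (13%), among them *ALX4* (-1.20) and *PAX2* (-0.98). Of 17 basic helix-loop-helix factors, 4 rose (23.5%) and 6 fell (35.3%): the oligodendrocyte factors *OLIG1* (-3.60) and *OLIG2* (-1.11) fell, and the mesenchymal factors *TWIST1* (1.40) and *HAND2* (1.04) rose. Without control B1 or any 1 clone library, 5 to 7 of the homeobox and forkhead genes rose and 3 fell. Of the helix-loop-helix factors, 2 fell without control B1 and 3 without clone replicate 1 or 2.

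Signalling genes were also mixed. Of 37 TGF-beta, BMP and activin genes, 6 rose (16.2%) and 7 fell (18.9%). *BMP7* stood at 12.1, 15 and 12.3 CPM in controls and 0.532, 0.768 and 0.546 CPM in clone 1.14 (log2 fold change -4.41, adjusted p = 1.21e-05). The activin-like receptor gene *ACVR1C* stood at 0.951, 0.677 and 1.98 CPM against 13.7, 11.3 and 13.8 CPM (log2 fold change 3.37, adjusted p = 0.000184). The groups were apart in both genes, in opposite directions. Without clone replicate 1, 3 genes of that list rose, and without control B1, clone replicate 2 or clone replicate 3, 4 fell. Of 37 WNT genes, 3 rose (8.11%), led by *WNT3* (1.34), and 9 fell (24.3%), among them the feedback inhibitors *RNF43* (-1.66) and *NOTUM* (-1.02). WNT genes that rose numbered 7 without control B3, 5 without B2 and 1 without any 1 clone library, and those that fell 5 without control B1, clone replicate 1 or clone replicate 3. Of 18 FGF genes, 6 fell (33.3%), including the receptors *FGFR4* (-0.72), *FGFR2* (-0.70) and *FGFR1* (-0.53), and 4 rose (22.2%), including *FGF12* (2.83), or 2 without clone replicate 1.

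Of 32 interferon-stimulated genes, 6 rose (18.8%) and 8 fell (25%), so the list did not move 1 way. The antiviral enzyme *OAS2* (-3.60) and the membrane protein *IFITM1* (-2.62) fell, and *DDX60* (1.34) and *TRIM22* (0.53) rose. Without control B3, 10 rose, and without control B1, clone replicate 2 or clone replicate 3, 3 did. Of 13 antigen presentation genes, 5 fell (38.5%) and 0 rose by edgeR (1 at an unadjusted p under 0.05, 0 by DESeq2). Without clone replicates 1, 2 and 3 in turn, 2, 3 and 2 fell. *PSMB8*, an immunoproteasome subunit, stood at 7.61, 10.2 and 6.78 CPM against 2.45, 2.07 and 2.31 CPM (log2 fold change -1.84, adjusted p = 0.000674).

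*TAL1*, a blood stem cell transcription factor, stood at 53.7, 57.2 and 52.5 CPM in controls and 2.39, 2.89 and 2.85 CPM in clone 1.14 (log2 fold change -4.33, adjusted p = 1.83e-06). *RUNX1* moved the other way, from 7.34, 6.3 and 7.68 CPM to 15.4, 15.1 and 16.6 CPM (log2 fold change 1.13, adjusted p = 0.000261). Of 24 haematopoietic markers, 7 were tested, 7 had no read in any of the 6 libraries, including *MPO*, *SPI1* and *GATA1*, and the summed level was 127 to 130 CPM in controls and 78.6 to 83.8 CPM in the clone. Without *TAL1* the sum was 73.2 to 76.6 CPM in controls and 75.8 to 80.9 CPM in the clone.

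Among G1 genes, *CCND1*, which encodes cyclin D1, stood at 7.95, 8.06 and 7.63 CPM in controls and 43.8, 42.9 and 41.5 CPM in clone 1.14 (log2 fold change 2.44, adjusted p = 3.88e-06). Of the 36 genes of that list, 5 rose (13.9%) and 4 fell (11.1%), and 3 rose without control B1, clone replicate 2 or clone replicate 3. Core proliferation genes mostly did not pass the test. Of 50 DNA replication genes, 1 fell, *MCM6* (-0.43), and 0 rose by edgeR (2 at an unadjusted p under 0.05, 1 by DESeq2), and of 50 mitosis genes 1 rose and 3 fell. These counts depended on control B3, without which 6 replication genes rose and 5 fell, and 15 mitosis genes rose and 10 fell. In the fit without control B3, 19.5% of all genes tested rose and 18.5% fell. Without control B1 or any 1 clone library, 1 mitosis gene fell. With the replicate number as a block, 1 replication gene rose and 2 fell, and 2 mitosis genes rose and 6 fell. Of 81 ribosomal protein genes, 3 fell and 0 rose by edgeR (0 at an unadjusted p under 0.05, 0 by DESeq2), with a median log2 fold change of -0.16, and 49 fell without control B3 and 27 with the replicate block.

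Of 417 ZNF genes, 47 rose (11.3%) and 34 fell (8.15%). Without control B3, 154 rose, where 19.5% of all genes tested did. Without control B1 or any 1 clone library, 13 to 22 rose, where 4.65% to 5.79% of all genes tested did. On chromosome 19, 32 of 201 rose (44 with the replicate block) and 21 fell. On the other chromosomes 15 of 216 rose (26 with the replicate block) and 13 fell. Without clone replicates 1, 2 and 3 in turn, 7, 15 and 9 rose on chromosome 19 and 6, 7 and 6 on the others. Without control B1, 9 and 8 rose, and without control B3, 83 and 71. At 19p12, a list chosen after values were seen, 8 of 27 fell and 0 rose by edgeR (3 at an unadjusted p under 0.05, 1 by DESeq2), and 10 rose without control B3. *ZNF486*, lost as described, lay near *ZNF253*, *ZNF90* and *ZNF737*, which also fell. A further group of neighbours, named after their values were seen, was *ZNF43*, *ZNF208*, *ZNF676* and *ZNF729*. *ZNF676* held 46, 19 and 110 reads in controls and 0, 0 and 0 in the clone, and *ZNF43* 54, 29 and 86 against 1, 0 and 1. The genes are similar in sequence, and reads that matched several places were not counted.

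Runs of at least 4 consecutive tested genes called in the same direction were found 23 times, 11 higher (57 genes) and 12 lower (53 genes). The longest, on chromosome 10 over 8624 kb, held 9 genes that rose, *ASAH2B*, *CSTF2T*, *ZWINT*, *IPMK*, *CISD1*, *UBE2D1*, *TFAM*, *BICC1* and *FAM13C*. The kinase *IPMK* (1.23), the RNA-binding *BICC1* (1.00) and *FAM13C* (1.37) changed most there, and *IPMK*, *UBE2D1* and *TFAM* lost their calls in 4 of the 6 fits that left out 1 library (those without control B1 or any 1 clone library), and *ASAH2B* in 5 of them and under DESeq2. On chromosome 16, 7 genes over 307 kb fell, from *MT2A* through the nucleoporin *NUP93* (-0.24) to *SLC12A3*. *NUP93* lost its call without control B1 or any 1 clone library. On chromosome 4, 6 genes over 1524 kb rose, with the kinase *STK32B* (2.76) furthest and *MSX1* (0.59), a homeobox gene, among them. On chromosome 17, 6 genes over 291 kb fell, *HOXB4*, *HOXB6*, *HOXB9*, *HOXB13*, *TTLL6* and *CALCOCO2*. On chromosome 7, 6 genes over 2026 kb rose, *ITGB8*, *SP8*, *SP4*, *DNAH11*, *CDCA7L* and *RAPGEF5*. There *ITGB8* lost its call without any 1 library but control B3, and *RAPGEF5* without control B1 or any 1 clone library. *SP8* lost its call with DESeq2, and *SP4* without clone replicate 1 or control B1. The number of runs was 145 without control B3, 5 to 7 without control B1 or any 1 clone library, and 44 with the replicate block.

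Long genes rose more often, and falls of at least 2-fold were also more frequent among them. Of the 204 tested genes spanning at least 500 kb, 32.8% rose and 15.2% fell, and 18.6% rose and 8.82% fell at least 2-fold. Of the 2250 genes under 10 kb, 5.51% rose and 12.9% fell, and 1.42% rose and 3.56% fell at least 2-fold. Between these, 7.33% of genes of 30 to 100 kb, 14.3% of those of 100 to 300 kb and 24% of those of 300 to 500 kb rose. The same order was seen within low, middle and high classes of GC content, which were of equal size over all spans. Of genes of at least 300 kb, 29.2% of 236 rose in the low, 25.3% of 265 in the middle and 28.3% of 53 in the high class. Of genes under 100 kb, 8.38%, 5.92% and 5.54% rose in the same classes. The median span was 71.6 kb for genes that rose, 32 kb for those that fell and 34.9 kb over all. Chromosome 4 had the highest share of genes that rose, 21% of 467, and chromosome 20 the lowest, 4.06%.

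**Figure D5:**
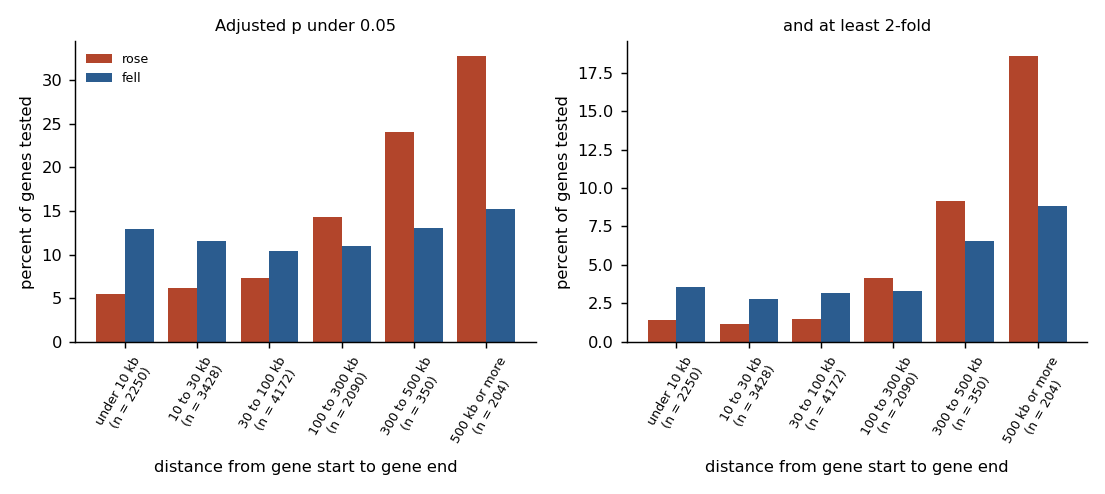
Percent of tested genes that rose and that fell in clone 1.14, by gene span. The share that rose climbs from 5.51% under 10 kb to 32.8% at 500 kb or more, and the share that fell lies between 10.4% and 15.2%.

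The response of the clones differed in 339 of 12786 genes tested for the difference (2.65%), higher in 1.14 in 126 (0.985%) and lower in 213 (1.67%), or in 173 genes with the replicate block. Set and clone cannot be told apart here, since each clone was set against different controls. *CADM1* stood at 21.4, 24.2 and 25.5 CPM in set A controls and at 57.9, 53 and 46.4 CPM in clone 3.3, so that it rose there and fell in clone 1.14 (difference -7.46, adjusted p = 4.22e-10). *BMP7* stood at 16, 12.5 and 11.9 CPM against 66.5, 68.2 and 74.1 CPM in set A, also higher in clone 3.3 (difference -6.79, adjusted p = 1.23e-09). *FAM124B* stood at 0, 0.37 and 0.237 CPM against 0.0489, 0.0705 and 0 CPM, near 0 in both, where clone 1.14 was higher than its controls (difference 6.09, adjusted p = 0.00295). *PAK6*, a p21-activated kinase, stood at 1.43, 2.17 and 1.53 CPM in control B and 8.67, 8.5 and 6.74 CPM in clone 1.14, with a log2 fold change of 2.23 against -2.53 in clone 3.3 (difference 4.73, adjusted p = 2.29e-06). *MYOM1*, a sarcomere protein, had a log2 fold change of -0.15 (adjusted p = 0.0833) in clone 1.14 and -4.25 in clone 3.3 (difference 4.08, adjusted p = 1.78e-09). *NCAM2* rose in both clones, by 4.58 in clone 3.3, and its difference did not pass the test (0.62, adjusted p = 0.665).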

How the data were processed

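Stranded poly(A) RNA-seq libraries of HAP1 cells were analysed, 6 for the comparison and 6 of clone 3.3 and its controls. The authors aligned the reads to hg19 with TopHat2 (version 2.0.9 in the submitters' processing notes) and counted unique reads per Ensembl gene with HTSeq, and the deposited values are raw counts. The annotation used for counting is not given in the sources used here. Rows that name no gene (20.3% to 21.4% of a library) were left out. They held reads that were not unique (14.3% to 15.7%), reads on no feature (4.04% to 4.78%) and ambiguous reads (1.47% to 1.64%). Positions and symbols came from the GRCh37 annotation (96.6% of identifiers matched).

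Counts were filtered with filterByExpr, scaled by TMM and tested in edgeR 4.0.16 (R 4.3.3, glmQLFit and glmQLFTest, Benjamini-Hochberg, threshold 0.05). Only the 6 libraries entered this fit, and the difference between clones was an interaction term over 12 libraries. Fitted fold changes of genes without reads in a group depend on the prior count and are no bound. CPM is given per library, and SD or SE over 3 replicates per group. Lost genes needed at least 30 reads against at most 3. Fold intervals are exact at 95%. An exact permutation test of 3 against 3 libraries cannot go below p = 0.1.

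Genes named were *WAPL*, the 10 largest changes each way without overlap and whose average log2 CPM reached 1, lost or switched-on genes, the 5 longest runs, up to 3 members per list and direction, the 5 largest clone differences each way and the 5 farthest genes of deviating libraries. Others were named after their values were seen, and a few genes are not reported here. Members and lists were chosen with earlier results of these data known. Alternatives were DESeq2 1.42.0, other scalings, filters and fits, a replicate block, each library left out and, chosen after seeing the data, removal of each library's GC trend. The fit was tested on simulated data.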

Additional observations from a re-analysis of the deposited data

Results flagged for a closer look

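A test of the difference between the clones (edgeR interaction term) found 339 genes whose response in clone 1.14 differed from that in clone 3.3. The differences below are the log2 fold change in clone 1.14 minus that in clone 3.3. The largest in the negative direction were *S100A6* (-11.70, adjusted p = 4.8e-08), the WNT receptor *FZD10* (-10.77, adjusted p = 6.02e-07), *SLC17A9* (-9.16, adjusted p = 1.23e-09), *CD44* (-8.99, adjusted p = 5.7e-06) and *CADM1* (-7.46, adjusted p = 4.22e-10). *S100A6*, *FZD10* and *CD44* had no reads in clone 1.14, so the size of their differences depends on the prior count. The largest in the positive direction were *FAM124B* (6.09, adjusted p = 0.00295), *PAK6* (4.73, adjusted p = 2.29e-06), *ZNF385D* (4.73, adjusted p = 4.33e-05), the unconventional myosin *MYO5C* (4.62, adjusted p = 1.73e-05) and the galectin *LGALS8* (4.54, adjusted p = 6.02e-07). *ZNF385D*, *MYO5C* and *LGALS8* changed by -4.59, -4.50 and -4.15 in clone 3.3, against 0.15, 0.12 and 0.40 in clone 1.14. Groups of 3 libraries are too small for the test of single outlying samples, which was not run.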

How the results depend on the processing

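The count of 2536 genes past the threshold (1099 higher, 1437 lower) became 1602 (717 and 885) in a fit over 12 libraries, 4598 (2381 and 2217) with the GC trend of each library removed, and 5294 (2821 and 2473) with that and the replicate block. It ranged from 1415 to 4820 with 1 library left out (592 to 2474 higher, 823 to 2346 lower), lowest without clone replicate 1 and highest without control B3. DESeq2 gave 2120. The 339 differences between clones became 750 with the GC trend removed, 211 with at least 10 reads in every library and 173 with the replicate block, and 218 to 372 with 1 library left out, lowest without clone 1.14 replicate 1. The 23 runs became 15 and 14 in fits over 12 and 18 libraries, 117 with the GC trend removed, 168 with that and the block, 44 with the block, 81 when 3 genes sufficed, and 5 to 145 with 1 library left out. Lost genes numbered 43 at 10 reads against 1 and 5 at 100 reads against 3, and 22 to 28 with 1 library left out. Genes switched on numbered 0 at 100 reads against 3, and 4 to 5 with 1 library left out. The cause of these shifts was not tested. Of 312 named genes, 96 lost their call under at least 1 alternative and 0 changed direction. The share of genes of at least 500 kb that rose exceeded that of all genes under every alternative run. Deviations of libraries with the same replicate number correlated at 0.066, 0.364 and 0.224 over all genes tested and at 0.124, 0.470 and 0.315 over genes whose average log2 CPM reached 1. Clone replicate 1 correlated best with control 3 in both (0.180 and 0.243), so whether the numbers pair the libraries was not settled. The replicate block gave 3030 calls.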
